A study of Mus musculus with 1298 samples.

Results

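Thrombospondins and the other matricellular proteins are secreted into the extracellular matrix, where they tie cells, growth factors and fibres to each other and tune how cells attach, move and respond to signals. The 9 genes described here were fixed by name: *Thbs1*, *Thbs2*, *Thbs3* and *Thbs4* of the thrombospondin family, the fasciclin-domain genes *Postn* (periostin) and *Tgfbi* (TGF-beta-induced protein), *Tnc* (tenascin C), *Fn1* (fibronectin) and *Sparc* (osteonectin). All 9 were listed among the 17634 genes of the 10× table, the 22894 of the Smart-seq2 table and the 22938 of the bulk table.

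The cells came from *Pax7CreER:R26R-stop-EYFP* mouse embryos, in which tamoxifen (75 µg/g at E9.5) switches on YFP in cells that express *Pax7* at that time and in all of their descendants. YFP+ cells of pooled embryos, with the head, limbs and viscera removed, were sorted from E12.5, from E14.5 and from E16.5 embryos, and every cell of every group carries the same 2 alleles and the same treatment. The label is set by *Pax7* activity around a single induction, so cells of the neural tube that expressed *Pax7* are included and descendants that did not recombine are not. Each stage was profiled as 1 droplet library (10×) and as single cells on Smart-seq2 plates, and 18 bulk libraries of sorted or cultured cells were deposited beside them. Of these bulk libraries only the 2 of sorted Pdgfra-/Cd36+ cells (E16.5, technical duplicates) could be tied to a label and are used.

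Thrombospondins 1 and 2 are trimers with type 1 repeats that bind the receptor CD36, and thrombospondin 1 can activate latent TGF-beta. Thrombospondins 3 and 4 are pentamers without those repeats and are known from cartilage, tendon and bone. Periostin and TGFBI share fasciclin domains and bind integrins and collagen, tenascin C is a large glycoprotein of tendon and of remodelling tissue, fibronectin forms the first fibrils on which other matrix is laid, and SPARC binds collagen and assists its assembly. Dermomyotome descendants give rise to skeletal muscle, dorsal dermis and brown fat, and the mesenchymal branch lays down most of the connective tissue around them.

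After the cell limits, 1017, 964 and 940 10× cells (E12.5, E14.5, E16.5; median 2185, 5930 and 1607.5 UMIs per cell) and 931 Smart-seq2 cells (by stage median 393416, 769833 and 829590 expected counts) remained, and 3 of 2931 10× barcodes occurred in more than 1 library. Cells were clustered without the 9 genes and the related genes listed further on, and clusters were named after marker lists as early progenitor (EP)-like, late progenitor (LP)-like, dermal fibroblast (DF)-like, early muscle (EM)-like, late muscle (LM)-like, brown adipocyte (BA)-like, pericyte (PE)-like, neuron (N)-like and neural progenitor (NP)-like. At E12.5, 280 10× cells and 38.5% of the kept Smart-seq2 cells were EP-like. LP-like cells were 606 10× cells, all but 1 of E14.5 or E16.5, and 52 and 91 Smart-seq2 cells of those stages. The labels were weaker for both progenitor classes: the EP-like cluster scored 0.509 on its own 8 markers (mean z-score) and 1.17 on a cartilage list, and 1 of the 3 LP-like clusters (44.9% of the LP-like 10× cells, 95.96% of these from E14.5) scored 1.52 on the LP list and 2.64 on a tendon list. That cluster is called the tendon-marker LP-like cluster below. Of the 3 EM-like clusters, 1 held 89.4% of the EM-like 10× cells of E16.5 and was led by ribosomal-protein genes. Summed over the cells of a class, the tendon list was at 149.3 to 225.4 CPM (counts scaled to the same total in each sum) in LP-like sums. It was at 6.07 to 103.95 CPM in LM-like, 44.1 to 62.7 in EP-like, 11.9 to 50.6 in EM-like and 10.9 to 25.2 in DF-like sums. On 1 of the 15 Smart-seq2 plates, an E12.5 plate, every value was a whole number, unlike on the other 14, and how its values were made is not given in the sources used here. It gave 8 EP-like and 6 EM-like cells, which held 17.4% and 48.1% of the counts of the E12.5 Smart-seq2 sums of these classes, and the comparisons fitted with those sums are given with and without it. Without that plate the EM-like sum went from 127.4 to 245.6 CPM of *Postn*, from 210.7 to 366.3 CPM of *Thbs1*, from 147.1 to 222.9 CPM of *Tgfbi* and from 8.64 to 0.441 CPM of *Thbs2*, and the EP-like sum from 70.6 to 34.8 CPM of *Tnc* and from 641 to 458.6 CPM of *Fn1*.

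By GENCODE vM21 on GRCm38, *Thbs1* lies at chr2:118111876-118127133 on the plus strand, *Thbs2* at chr17:14665500-14694235 on the minus strand, *Thbs3* at chr3:89215180-89226837 on the plus strand and *Thbs4* at chr13:92751590-92794818 on the minus strand. *Postn* lies at chr3:54361109-54391037 on the plus strand and *Tgfbi* at chr13:56609523-56639562 on the plus strand. *Tnc* lies at chr4:63959785-64047015, *Fn1* at chr1:71585520-71653200 and *Sparc* at chr11:55394500-55423183, all on the minus strand. *Thbs3* overlaps the protein-coding gene *Mtx1* on the opposite strand, *Thbs1* the antisense non-coding gene *Gm29233*, *Tnc* the gene *8030451A03Rik* and *Fn1* the gene *Apol7d*, and Smart-seq2 reads do not keep the strand, so reads of such overlaps cannot be told apart there.

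The 250 bases before the start site are shown for *Thbs4*, *Postn* and *Thbs2*, because *Thbs4* and *Postn* differed most between LP-like and EP-like cells and *Thbs2* differed most between LP-like and EM-like cells (RefSeq, GRCm38.p6, 5′ to 3′ on the gene's strand). They lie at chr13:92794819-92795068 (minus strand), chr3:54360857-54361106 (plus strand) and chr17:14694263-14694512 (minus strand). Capitals mark the letters TATAAA, those of the motif spelled CCAAT, and those of the motif spelled GGGCGG on either strand, each read in reverse complement when it lies on the other one, and no marked stretches overlap.
Thbs4: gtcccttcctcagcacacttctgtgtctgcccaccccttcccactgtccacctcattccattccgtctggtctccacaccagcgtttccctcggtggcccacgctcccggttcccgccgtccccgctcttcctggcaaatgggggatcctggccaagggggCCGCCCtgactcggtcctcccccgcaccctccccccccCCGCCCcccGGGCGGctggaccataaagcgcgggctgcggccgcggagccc
Postn: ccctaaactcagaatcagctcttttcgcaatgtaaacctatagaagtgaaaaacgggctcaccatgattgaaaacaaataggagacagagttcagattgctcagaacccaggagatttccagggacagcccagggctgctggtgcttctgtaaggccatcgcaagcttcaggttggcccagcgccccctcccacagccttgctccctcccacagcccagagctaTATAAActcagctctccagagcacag
Thbs2: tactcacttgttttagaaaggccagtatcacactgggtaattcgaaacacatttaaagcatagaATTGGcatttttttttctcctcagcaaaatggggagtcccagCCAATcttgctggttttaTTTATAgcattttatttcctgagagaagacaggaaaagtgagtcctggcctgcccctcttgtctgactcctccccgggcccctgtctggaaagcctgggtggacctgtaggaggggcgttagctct
The *Postn* window held 1 TATAAA, the *Thbs2* window 1 TATAAA and 2 CCAAT, and the *Thbs4* window 3 GGGCGG and no TATAAA. Of all 32851 promoter windows of this length 12.4% held TATAAA, 33.8% CCAAT and 32.7% GGGCGG, and no searched motif was in all of the windows shown. The GC content was 70.8% for *Thbs4*, 52% for *Postn* and 46.8% for *Thbs2*. The table used held no window for *Thbs1* or *Fn1*.

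*Thbs4*, *Thbs3* and *Postn* were the genes whose LP-like sums lay above every other sum on both platforms, and *Thbs1*, *Thbs2* and *Sparc* were shared between LP-like and DF-like cells. PE-like cells of E16.5 also held *Thbs1*, *Thbs2* (3 UMIs) and *Sparc* on 10×. BA-like and PE-like cells were too few on Smart-seq2 for a sum (14 and 15 cells of E16.5), so these 2 classes were compared on 10× only. Levels are given as CPM of the summed counts of a class in 1 pool, a pool being 1 platform at 1 time point, with 95% Poisson intervals for 10×, which cover counting error only. Smart-seq2 CPM are not divided by transcript length, so levels of different genes are compared only where a value per length is named.

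*Thbs1*, the thrombospondin best known as an activator of TGF-beta, was at 64.6 CPM (44.5 to 90.8) in EP-like cells of E12.5 on 10× and at 159.6 CPM on Smart-seq2. In LP-like cells it was at 495.4 CPM (466.3 to 525.7) at E14.5 and 1122 CPM (1018 to 1235) at E16.5 on 10×, and at 619.8 and 3519 CPM on Smart-seq2. DF-like cells held 223.9 and 549.9 CPM on 10× and 537.4 and 2219 CPM on Smart-seq2. The 10× LP-like sums lay above the DF-like sum of the same stage, but the E14.5 LP-like sum was below the E16.5 DF-like sum on both platforms, so the 2 classes overlapped across stages. From E14.5 to E16.5 *Thbs1* differed by 1.18 log2 units in LP-like and 1.29 in DF-like cells on 10×, and by 2.50 and 2.04 on Smart-seq2. The 4 Smart-seq2 plates of E16.5 gave 2955 to 4129 CPM in LP-like cells, and the 6 plates of E12.5 gave 68.9 to 318.1 CPM in EP-like cells.

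With all plates kept, no sum outside the LP-like and DF-like classes exceeded 238.5 CPM of *Thbs1*. Without the plate of whole numbers the EM-like Smart-seq2 sum of E12.5 did, at 366.3 CPM. EM-like sums were at 18 to 32.99 CPM on 10× and 31.6 to 210.7 CPM on Smart-seq2, and BA-like cells of E16.5 were at 53.6 CPM (35.3 to 77.9). PE-like cells of E16.5, which wrap small vessels, were at 238.5 CPM (127.02 to 407.9). N-like sums, of a class taken here to lack it, were at 7.11 and 19.6 CPM on 10× and at 0.0708 and 4.67 CPM on Smart-seq2.

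*Thbs2*, which shares its domains with *Thbs1* and is known for restraining vessel growth and collagen fibre size, was at 83.5 CPM (71.9 to 96.6) and 180.9 CPM (140.5 to 229.3) in LP-like cells of E14.5 and E16.5 on 10×, against 11.8 CPM in EP-like cells. On Smart-seq2 the LP-like sums were 805 and 1553 CPM and the EP-like sum 82.8 CPM. DF-like sums were lower than LP-like sums of the same pool, at 47.98 and 104.7 CPM on 10× and 330.97 and 783 CPM on Smart-seq2. EM-like sums were at 0 to 2.25 CPM on 10× and 4.03 to 12.8 CPM on Smart-seq2, below every LP-like and DF-like sum.

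*Thbs3*, a pentameric thrombospondin of the skeletal matrix, was at 36.98 CPM (29.4 to 45.96) and 37.2 CPM (20.4 to 62.5) in LP-like cells of E14.5 and E16.5 on 10× and at 230.1 and 336.5 CPM on Smart-seq2. The next highest class was N-like, at 15.5 CPM (9.93 to 23.1) on 10× at E12.5 and 45.3 CPM on Smart-seq2 at E14.5. The lowest LP-like sum was 2.38 times the highest sum of any other class on 10× and 5.08 times on Smart-seq2. DF-like sums were at 3.00 and 4.36 CPM on 10× and 28.3 and 18.1 CPM on Smart-seq2.

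*Thbs4*, known from tendon and muscle attachment, separated the LP-like class from every other class that had a sum on the same platform. LP-like cells held 84.5 CPM (72.7 to 97.5) at E14.5 and 95.8 CPM (67.1 to 132.6, 36 UMIs) at E16.5 on 10×, and 714 and 531.6 CPM on Smart-seq2. The EP-like sums were 1.959 and 2.96 CPM, the DF-like sums 2.00 and 4.36 CPM on 10× and 26.1 and 10.7 CPM on Smart-seq2, and the BA-like sum 5.95 CPM. The lowest LP-like sum was 14.2 times the highest other sum on 10× (BA-like) and 20.4 times on Smart-seq2 (DF-like, E14.5).

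**Figure D1:**
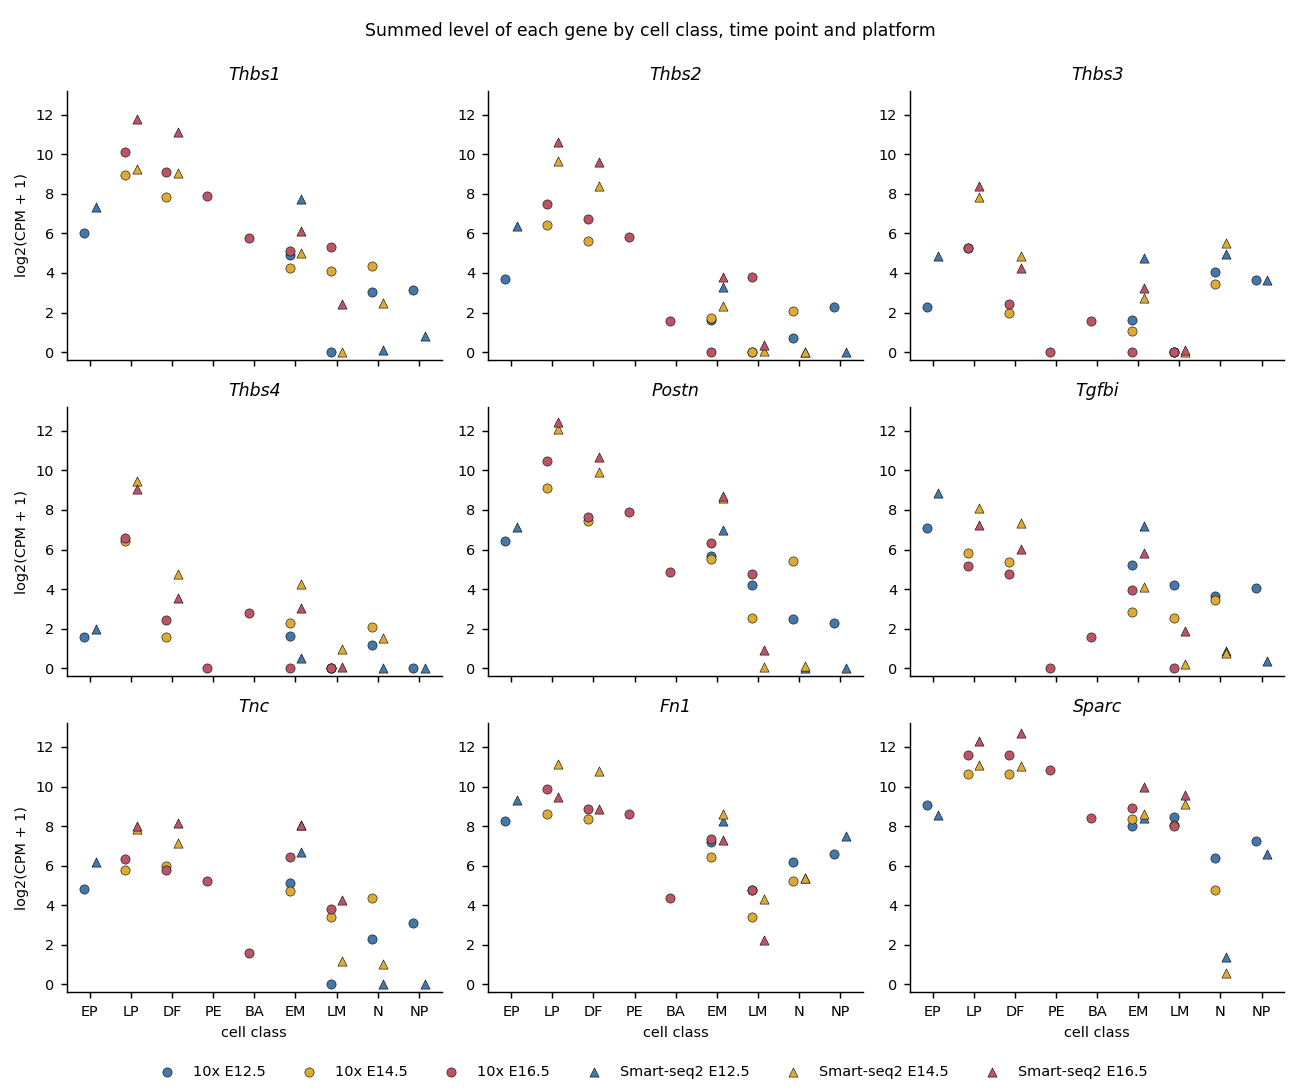
Level of the 9 genes (y axis, log2(CPM + 1) of summed counts) by cell class (x axis), with each platform and time point as its own marker and colour. *Thbs4* in LP-like cells stands at least 14.2 times above every other class on 10×. *Sparc* is at 1583 CPM or more in every LP-like and DF-like sum and at 1817 CPM in the PE-like sum.

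*Postn*, whose protein crosslinks collagen in tendon, dermis and periosteum, was at 549 CPM (518.6 to 581) and 1407 CPM (1289.8 to 1532) in LP-like cells of E14.5 and E16.5 on 10×, and at 4330.0 and 5616 CPM on Smart-seq2. EP-like cells held 84.2 CPM (60.9 to 113.4) and 140.8 CPM, and DF-like cells 174.9 and 200.7 CPM on 10× and 960.4 and 1614 CPM on Smart-seq2. The LP-like sums lay above every other sum on both platforms, by at least 2.30 times on 10× (against PE-like cells at 238.5 CPM) and 2.68 times on Smart-seq2, where PE-like cells had no sum. EM-like cells were at 45.6 to 80.6 CPM on 10× and 127.4 to 417.1 CPM on Smart-seq2, and LM-like cells at 4.85 to 25.99 CPM on 10× and at most 0.864 CPM on Smart-seq2. *Tgfbi*, its fasciclin relative, was highest in EP-like cells, at 135.1 CPM (105.1 to 171.03) and 461.1 CPM. LP-like cells were at 55.7 CPM (46.3 to 66.5) and 34.6 CPM (18.4 to 59.1) on 10× and at 272.2 and 149.4 CPM on Smart-seq2. EP-like sums were of E12.5 only, so stage and class cannot be told apart there. On both platforms *Tgfbi* was lower at E16.5 than at E14.5 in LP-like and DF-like sums, but higher in EM-like sums. The 10× intervals of these stages overlapped in each of these classes, so no common direction with stage is given for *Tgfbi*.

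*Tnc* did not set LP-like, DF-like and EM-like cells apart. LP-like sums were at 53.9 and 79.8 CPM on 10× and 230.1 and 252.4 CPM on Smart-seq2, DF-like sums at 61.98 and 54.6 CPM and at 142.1 and 282.3 CPM, and EM-like sums at 25.3 to 84.3 CPM and 102.8 to 268.6 CPM, so the 3 classes overlapped. EP-like cells were at 27.4 and 70.6 CPM, and LM-like cells at 0 to 13.0 CPM on 10× and 1.25 and 18.3 CPM on Smart-seq2.

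*Fn1*, which is expressed by most adherent mesenchymal cells, was at 303.6 and 641 CPM in EP-like cells. PE-like cells of E16.5 were at 385.3 CPM (238.5 to 589.04) on 10×. The platforms went in opposite directions between stages: LP-like cells were at 393.5 CPM (367.7 to 420.7) at E14.5 and 931 CPM (836 to 1034) at E16.5 on 10×, but at 2271 and then 701 CPM on Smart-seq2. DF-like cells showed the same split, with 327.9 and 460.4 CPM on 10× and 1737 and 457.6 CPM on Smart-seq2. No direction with stage is therefore given for *Fn1*.

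*Sparc* was high in the later mesenchymal classes and in PE-like cells. It was at 534.7 and 381.4 CPM in EP-like cells, at 1583 and 3115 CPM (10×) and 2208 and 5079.5 CPM (Smart-seq2) in LP-like cells, and at 1598 and 3083 CPM and 2076 and 6653 CPM in DF-like cells, so LP-like and DF-like cells overlapped. PE-like cells of E16.5 were at 1817 CPM (1476 to 2212) on 10×, within the range of the LP-like and DF-like sums there. Muscle cells also held *Sparc*: EM-like sums reached 480.2 CPM on 10× and 1001 CPM on Smart-seq2, and LM-like sums 348.3 and 772 CPM.

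Per transcript length, as Smart-seq2 TPM (expected counts divided by transcript length, then scaled as CPM are), *Postn* (3006) and *Sparc* (2136) were the most abundant of the 9 genes in LP-like cells of E14.5, and *Sparc* (4849) and *Postn* (3847) in those of E16.5, with ranks 19 and 22 among all genes. *Thbs1* was at 235.8 and 1321 on this scale in LP-like cells of the 2 stages, *Thbs2* at 303.9 and 578.5, *Thbs4* at 496.8 and 364.996 and *Thbs3* at 160.5 and 231.6. The order of *Thbs1*, *Thbs2* and *Thbs4* was thus *Thbs4*, *Thbs2*, *Thbs1* at E14.5 and the reverse at E16.5, with 1 sum each. *Fn1* was at 608 and 185.02, *Tgfbi* at 223.2 and 120.9 and *Tnc* at 72.1 and 77.98.

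**Figure D2:**
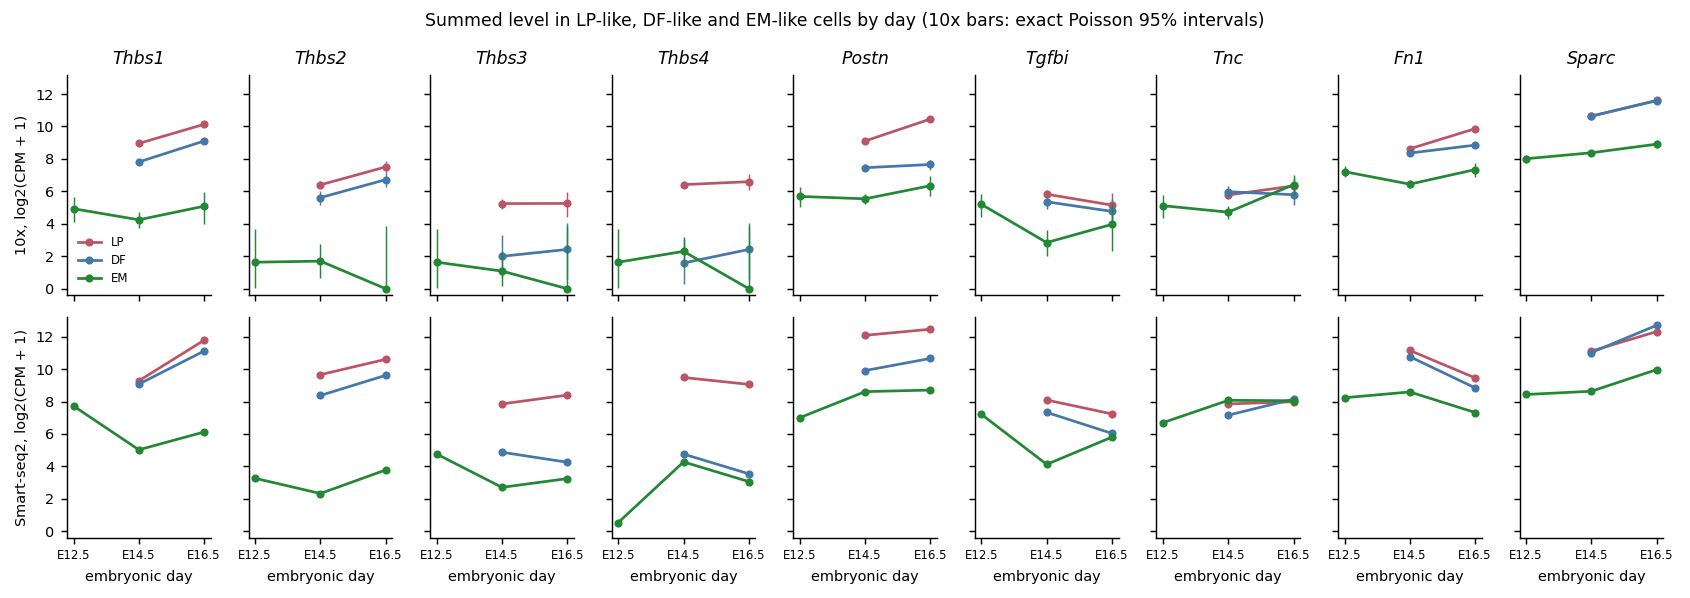
Level of the 9 genes (y axis, log2(CPM + 1) of summed counts) by embryonic day (x axis) in LP-like, DF-like and EM-like cells, with 10× in the upper and Smart-seq2 in the lower row and 95% Poisson intervals as bars on 10×. *Thbs1* in LP-like cells goes from 495.4 to 1122 CPM on 10× and from 619.8 to 3519 CPM on Smart-seq2, while *Fn1* goes up on 10× and down on Smart-seq2.

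Shares of 10× cells with at least 1 UMI gave the same picture after each cell was thinned to 1000 UMIs, which removes the difference in depth. *Thbs1* was seen in 30.4% of the LP-like cells of E14.5 (exact 95% interval 25.7 to 35.3) and in 3.23% of 93 N-like cells (0.67 to 9.14), a class taken here to lack it. *Postn* was seen in 38.5% (33.5 to 43.7) and 2.15% (0.262 to 7.55). Both shares in LP-like cells were above those in N-like cells. All these cells come from 1 library and are not replicates, so the intervals cover counting error only. That N-like cells lack these genes is assumed. N-like cells of E14.5 held 42.6 CPM of *Postn* on 10× (13 UMIs in 6 cells) but 0.0795 CPM on Smart-seq2. The part of free RNA in these shares was not tested. *Thbs4* was seen in 8.4% and *Thbs2* in 8.13% of the LP-like cells of E14.5, and *Sparc* in 72.9%. Unthinned, at a median of 5423 UMIs in LP-like and 2877 in N-like cells, *Thbs1* was in 63.96% against 5.32% and *Postn* in 83.2% against 6.38%. At E16.5 23 shallower LP-like cells were left out, and the thinned shares were 46.01% for *Thbs1*, 62.4% for *Postn*, 18.8% for *Thbs2*, 90.1% for *Sparc* and 7.51% for *Thbs4*.

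The 3 LP-like clusters did not hold the genes evenly. The clusters are given in the order of the tendon-marker cluster, a cluster mostly of E16.5 cells on both platforms (99.1% and 91.3%), and the remaining cluster, which was mostly of E14.5 cells on 10× (98.1%) and mostly of E16.5 cells on Smart-seq2 (70.3%). *Tgfbi* was at 73.9, 36.02 and 11 CPM on 10× and 325.3, 65.3 and 11.7 CPM on Smart-seq2, so it was highest in the tendon-marker cluster. *Tnmd*, the tendon marker tenomodulin, was at 146.4, 66.5 and 21.97 CPM on 10×. *Thbs1* was at 604, 1133 and 233.8 CPM on 10× and 1788, 4758 and 1830.5 CPM on Smart-seq2. *Thbs4* was at 87.9, 80.3 and 84.7 CPM on 10× and 547, 88.6 and 917.5 CPM on Smart-seq2. The stages of the clusters differ between platforms, so the 2 sets of values do not compare the same cells.

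Within the Smart-seq2 cells of E16.5 all 3 clusters could be set side by side (44, 21 and 26 cells), with no replicate. In the same order *Tgfbi* was at 283.2, 36.7 and 3.22 CPM and *Postn* at 7262, 4434 and 3676 CPM, both highest in the tendon-marker cluster. *Thbs1* was at 3294, 4633 and 3128 CPM, and *Thbs4* at 486.2, 102.06 and 904.4 CPM, lowest where *Thbs1* was highest. *Tnmd* was at 390.2, 49.4 and 15.3 CPM, lowest where *Thbs4* was highest. Within the 10× cells of E14.5, which held the tendon-marker and the remaining cluster, *Tgfbi* was at 73.6 and 11.1 CPM and *Thbs1* at 601 and 235.6 CPM. *Thbs4* was at 84.5 and 85.4 CPM there, while *Tnmd* was at 132.3 and 20.6 CPM.

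**Figure D3:**
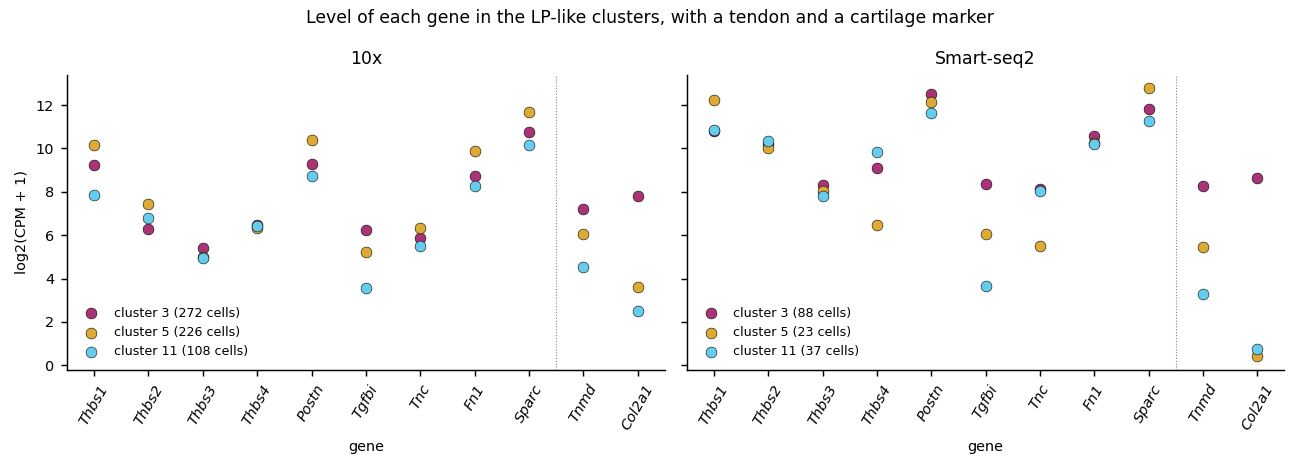
Level of the 9 genes and of a tendon and a cartilage marker (y axis, log2(CPM + 1) of summed counts) in each of the 3 LP-like clusters, with 1 panel per platform. Cluster 3 is the tendon-marker cluster, cluster 5 is mostly of E16.5 cells, and cluster 11 is mostly of E14.5 cells on 10× and of E16.5 cells on Smart-seq2. *Tgfbi* is highest in the tendon-marker cluster on both platforms, at 73.9 and 325.3 CPM.

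The first comparison asks how the late mesenchymal progenitors differ from the early ones. LP-like cells held more of all 4 thrombospondins, of *Postn*, of *Sparc* and of *Tnc* than EP-like cells. *Thbs4* showed the largest difference (log2 fold change 7.87 ± 0.64 SE), followed by *Postn* (4.75 ± 0.61), *Thbs1* (4.15 ± 0.76), *Thbs2* (4.14 ± 0.59), *Thbs3* (3.72 ± 0.51), *Sparc* (3.12 ± 0.55) and *Tnc* (1.97 ± 0.42). *Fn1* (1.53 ± 0.48) and *Tgfbi* (-0.94 ± 0.35) did not pass the test. The edgeR quasi-likelihood test on 2 EP-like and 4 LP-like sums, with the platform as a term and Benjamini-Hochberg adjustment over 14096 genes, gave adjusted p-values of 0.000214 for *Thbs4*, 0.00176 for *Postn*, 0.00226 for *Thbs3*, 0.00261 for *Thbs2*, 0.00786 for *Sparc*, 0.00912 for *Thbs1*, 0.0178 for *Tnc*, 0.0878 for *Fn1* and 0.152 for *Tgfbi*. Thus 7 of 9 genes were higher and 0 lower, where 4.65% of all genes tested were called higher and 0.851% lower. The median log2 fold change was 3.72 over the 9 genes and 0.11 over all genes. The study named *Thbs1* and *Postn* for this pair of classes from the same cells, so their direction is not independent evidence.

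These calls rest on few sums. Without the Smart-seq2 EP-like sum edgeR called 0 of 11948 genes (650 at an unadjusted p under 0.05, and 76 by DESeq2), although *Thbs4* stood at 5.77 and *Postn* at 3.80 log2 units. *Thbs1* also missed the threshold without the 10× EP-like sum (edgeR adjusted p = 0.0980) or the 10× LP-like sum of E16.5 (0.0532), *Tnc* without either of the same sums (0.107 and 0.0731) and *Sparc* without the latter (0.0543), whereas *Fn1* passed without the Smart-seq2 LP-like sum of E16.5 (0.000881). Without the plate of whole numbers all 7 calls held, at adjusted p-values from 0.000267 (*Thbs4*) to 0.0135 (*Tnc*) in edgeR. With 10× sums alone *Thbs3* (0.0761), *Tnc* (0.291) and *Sparc* (0.111) missed it. *Tgfbi* was called lower by DESeq2 (-1.06, adjusted p = 0.0251) and in edgeR without the tendon-marker cluster (-3.44, adjusted p = 0.00425). Stage, class and library cannot be told apart in this pair, and the part of the tendon and cartilage markers in these differences was not tested beyond that cluster.

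Of 30 tested relatives of the 9 genes in the matrix (fibulins, CCN proteins, SMOCs, matrilins, microfibril proteins and the like), 15 were higher and 0 lower in LP-like cells, with a median log2 fold change of 2.28. *Tnxb*, which encodes tenascin X, had no count in either EP-like sum and was at 12.9 to 108.6 CPM in the LP-like sums. *Mfap5*, a microfibril protein, was higher by 8.71 ± 1.33 and *Ccn3*, a CCN matricellular protein, by 6.87 ± 1.09 log2 units. Of 17 tested receptors 3 were higher, with a median of 0.70, among them the thrombospondin receptor *Cd36* (7.02 ± 0.71). Of 17 genes of TGF-beta storage and collagen crosslinking 6 were higher and 1 lower, the latter being the ligand gene *Tgfb2* (-1.46 ± 0.38).

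**Figure D4:**
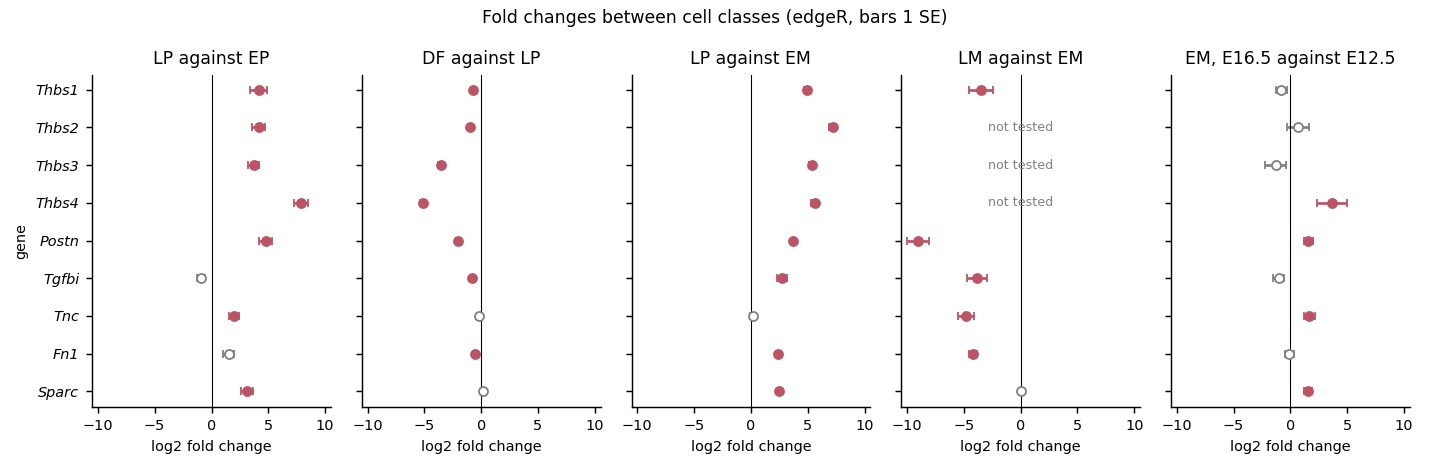
Log2 fold changes of the 9 genes in the 5 tested comparisons, with bars of 1 standard error from edgeR and filled points where the adjusted p was under 0.05. *Thbs4* and *Postn* lie far above 0 for LP-like against EP-like and EM-like cells, and *Thbs3*, *Thbs4* and *Postn* far below 0 for DF-like against LP-like cells.

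The next comparison sets dermal fibroblasts against late progenitors of the same pool. DF-like cells held far less *Thbs4* (log2 fold change -5.16 ± 0.23), *Thbs3* (-3.57 ± 0.27) and *Postn* (-2.04 ± 0.15) than LP-like cells and moderately less *Thbs2* (-0.96 ± 0.13), *Tgfbi* (-0.78 ± 0.19), *Thbs1* (-0.69 ± 0.14) and *Fn1* (-0.51 ± 0.12). *Sparc* (0.13 ± 0.10) and *Tnc* (-0.16 ± 0.18) did not pass the test. On the Smart-seq2 plates of E16.5 LP-like cells held 340.8 to 896 CPM of *Thbs4* and 276.6 to 374.1 CPM of *Thbs3*, and DF-like cells 1.44 to 26.3 and 9.61 to 26.2 CPM. The plates of the 2 classes did not overlap for either gene.

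The edgeR test over 4 pools, with the pool as a block, gave adjusted p-values over 13130 genes of 5.69e-07 for *Thbs4*, 1.18e-05 for *Postn*, 1.53e-05 for *Thbs3*, 0.000897 for *Thbs2*, 0.00911 for *Thbs1*, 0.0158 for *Fn1*, 0.0190 for *Tgfbi*, 0.458 for *Sparc* and 0.630 for *Tnc*. In all, 7 of 9 genes were lower and 0 higher, where 6.56% of all genes were called lower and 6.46% higher, and the median log2 fold change was -0.78 over the 9 genes and 0.00 over all genes. Within the single Smart-seq2 batches that held both classes, *Thbs4* differed by -4.83 (E14.5) and -5.51 (E16.5) and *Postn* by -2.11 and -1.80 log2 units. Without the tendon-marker cluster *Tgfbi* turned to 1.38 (edgeR adjusted p = 0.0322) and *Fn1* lost its call (0.0649). *Thbs1* lost its call without the 10× pool of E14.5 (0.0626) or of E16.5 (0.107), *Fn1* without the 10× pool of E16.5 (0.0948) and *Tgfbi* without either 10× E14.5 or Smart-seq2 E16.5 (0.0548 and 0.0657) or with 10× alone (0.480).

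Related matrix genes went the same way: 13 of 26 were lower and 1 higher in DF-like cells (median -0.79), with *Tnxb* at -5.90 ± 0.93. Among 16 receptors 5 were higher and 2 lower (median -0.06). The integrin genes *Itga4* (2.42 ± 0.50) and *Itga8* (2.20 ± 0.30) and the syndecan gene *Sdc4* (2.36 ± 0.29) were higher, and *Cd36* (-5.62 ± 1.16) and *Itgb8* (-5.64 ± 1.64) were lower. The values of *Tnxb* and *Cd36* are averages over stages that differed. From E14.5 to E16.5 they changed by 8.46 and 7.08 log2 units (edgeR interaction, adjusted p = 2.31e-07 and 5.79e-10, with 4.02% of all genes called). Of 17 TGF-beta and crosslinking genes 8 were lower and 2 higher (median -0.49), with the lysyl oxidase gene *Loxl4* at 5.05 ± 0.70 and the tolloid protease gene *Tll1* at -4.34 ± 1.198.

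Against the muscle branch the mesenchymal pattern was broadest. LP-like cells held more of 8 of the 9 genes than EM-like cells of the same pool, and only *Tnc* (0.15 ± 0.21) did not pass. *Thbs2* differed most (log2 fold change 7.18 ± 0.34), then *Thbs4* (5.60 ± 0.34), *Thbs3* (5.37 ± 0.24), *Thbs1* (4.96 ± 0.27), *Postn* (3.70 ± 0.17), *Tgfbi* (2.72 ± 0.43), *Sparc* (2.45 ± 0.14) and *Fn1* (2.36 ± 0.15). The edgeR test over 4 pools with the pool as a block gave adjusted p-values over 12889 genes from 6.21e-07 (*Thbs3* and *Postn*) to 0.000838 (*Tgfbi*) for these 8 and 0.611 for *Tnc*. In this pair 20% of all genes were called higher and 15.8% lower, and the median log2 fold change was 3.70 over the 9 genes and 0.11 over all genes.

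Within the 3 Smart-seq2 batches that held both classes, the 8 called genes were higher in LP-like cells in every batch, while *Tnc* was at -1.14, 2.59 and -0.06 log2 units, the second of these with only 10 LP-like cells. Without the tendon-marker cluster *Tgfbi* was at -0.64 and did not pass (edgeR adjusted p = 0.326). Of the related matrix genes 22 of 26 were higher and 0 lower (median 3.06), among them *Mfap5* (10.16 ± 0.82), *Smoc2* (8.09 ± 0.43), a SPARC relative, and *Tnxb* (7.50 ± 0.85). Of 16 receptors 10 were higher and 0 lower (median 1.71), with *Cd36* at 9.02 ± 0.71, and of 16 TGF-beta and crosslinking genes 13 were higher and 0 lower (median 2.14). From E14.5 to E16.5 the difference changed by -6.35 log2 units for *Cd36*, 4.81 for *Tnxb* and 3.97 for *Mfap5*. The edgeR interaction gave adjusted p = 0.00346, 0.000248 and 0.00157, with 2.32% of all genes called, so these 3 values are averages over stages.

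Within muscle, the genes were compared between differentiating and early cells. LM-like cells held less *Postn* (log2 fold change -9.01 ± 0.95), *Tnc* (-4.77 ± 0.70), *Fn1* (-4.22 ± 0.34), *Tgfbi* (-3.85 ± 0.87) and *Thbs1* (-3.48 ± 1.06) than EM-like cells, while *Sparc* did not pass the test (0.05 ± 0.19). *Fn1* illustrates the counts: EM-like sums were at 86.1 to 161.3 CPM and LM-like sums at 9.70 to 26.1 CPM on 10×, with no overlap. For *Postn* the platforms differed in size. On 10× LM-like sums were at 4.85 to 25.99 CPM (2 or 3 UMIs each) against 45.6 to 80.6 CPM in EM-like cells. On Smart-seq2 they were at 0.0290 and 0.864 CPM against 389.7 and 417.1 CPM in the same pools, a larger difference. *Thbs2*, *Thbs3* and *Thbs4* were too low to be tested. The edgeR test over 5 pools with the pool as a block gave adjusted p-values over 8087 genes of 1.38e-08 for *Fn1*, 4.77e-07 for *Postn*, 2.76e-05 for *Tnc*, 0.00231 for *Tgfbi*, 0.0194 for *Thbs1* and 0.891 for *Sparc*. Of the 6 genes tested 5 were lower and 0 higher, where 13.4% of all genes were called lower and 12.7% higher, and their median log2 fold change was -4.03 against 0.07 over all genes.

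The *Thbs1* call was the weakest of these, since it was lost by DESeq2 (adjusted p = 0.0529), without the 10× pool of E12.5 (0.0604) or E16.5 (0.0524), without the Smart-seq2 pool of E16.5 (0.183) and with 10× alone (0.766) in edgeR. Of 14 related matrix genes 13 were lower in LM-like cells (median -1.92), among them the basement membrane gene *Nid1* (-3.31 ± 0.52). Of 11 receptors 5 were lower and 2 higher (median -1.09), the latter the integrin genes *Itgb6* (3.94 ± 0.53) and *Itga4* (1.35 ± 0.38). Of 11 TGF-beta and crosslinking genes 7 were lower and 2 higher (median -1.45), with *Lox* (-6.35 ± 1.33), *Loxl2* (-5.51 ± 0.69) and *Ltbp1* (-5.32 ± 0.84) lower and *Tgfb3* (2.37 ± 0.37) and *Plod2* (0.82 ± 0.26) higher.

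Across stages within EM-like cells, *Postn* (log2 fold change 1.59 ± 0.43), *Tnc* (1.68 ± 0.45), *Sparc* (1.58 ± 0.37) and *Thbs4* (3.66 ± 1.30) were higher at E16.5 than at E12.5. The remaining 5 genes did not pass: *Thbs2* was at 0.67 ± 1.00, *Fn1* at -0.08 ± 0.40, *Thbs1* at -0.79 ± 0.46, *Tgfbi* at -1.04 ± 0.48 and *Thbs3* at -1.31 ± 0.94. *Sparc* was at 257.1, 331.96 and 480.2 CPM at the 3 stages on 10× and at 344.8, 396.2 and 1001 CPM on Smart-seq2, so it was higher at each later stage on both platforms. *Thbs4* was at 2.11, 3.94 and 0 CPM on 10× and at 0.457, 18.4 and 7.36 CPM on Smart-seq2, so its call came from the Smart-seq2 sums.

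The edgeR test on 6 sums with the platform as a term gave adjusted p-values over 12484 genes of 0.000525 for *Sparc*, 0.00351 for *Tnc*, 0.00425 for *Postn* and 0.0492 for *Thbs4*. Thus 4 of 9 genes were higher and 0 lower, where 5.53% of all genes were called higher and 4.81% lower, and the median log2 fold change was 0.67 over the 9 genes and 0.00 over all genes. All 4 calls were lost without the Smart-seq2 sum of E12.5 (*Postn* 0.75, adjusted p = 0.987; *Tnc* 1.11, 0.920; *Sparc* 1.43, 0.518), where *Thbs4* turned to -0.36. *Postn* (0.155) and *Sparc* (0.161) also missed the threshold in edgeR without the Smart-seq2 sum of E16.5 and *Sparc* without the 10× sum of E12.5 (0.108), and the clusters that held EM-like cells differed between stages, as described above. Without the plate of whole numbers, which gave 48.1% of the counts of the Smart-seq2 sum of E12.5, *Postn* (1.02, edgeR adjusted p = 0.101) and *Thbs4* (2.75, 0.148) lost their calls. *Sparc* (1.44, edgeR adjusted p = 0.00282) and *Tnc* (1.41, 0.0226) kept theirs, and *Thbs1* (-1.40, 0.0408), *Thbs2* (4.15, 0.0425) and *Tgfbi* (-1.50, 0.0300) gained one. Of the 4 higher calls only *Sparc* and *Tnc* therefore stood with and without that plate. Of 26 related genes 4 were higher and 6 lower (median 0.05). *Matn2* (3.72 ± 0.51), a matrilin, was higher, *Ccn3* went from no count in either E12.5 sum to 7.49 and 9.18 CPM, and *Sparcl1* (-4.27 ± 0.80), *Spock1* (-6.93 ± 2.03) and *Spock3* (-5.01 ± 0.83), which are relatives of *Sparc*, were lower. Of 16 receptors 2 were higher, *Itga8* (4.87 ± 0.98) and *Sdc4* (2.73 ± 0.52), and 2 lower, among them *Itga9* (-4.19 ± 1.15), with a median of 0.29, and of 15 TGF-beta and crosslinking genes 2 were higher and 0 lower (median 0.49).

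Once cells over 8% mitochondrial counts were left out, brown adipocytes could be set against late progenitors only in the 10× library of E16.5. That library was 16.8% BA-like and 25.1% LP-like, and with no replicate pool no test was made. The limit removed 51 Smart-seq2 cells of E16.5 and left 14 BA-like ones, too few for a sum. With high-mitochondrial cells kept, the BA-like cluster held 61 Smart-seq2 cells, which were not compared here. In the 10× library all 9 genes were lower in BA-like cells. *Sparc* was 9.5 times higher in LP-like cells (exact conditional interval 8.08 to 11.2), and *Thbs1* was 21.6 times (14.6 to 33.1), *Fn1* 48.3 times (25.9 to 101.6) and *Postn* 52.1 times (30.8 to 95.98) higher. The ratios of *Thbs4* (16.6, 5.23 to 84), *Thbs3* (19.3, 2.94 to 816), *Tgfbi* (17.9, 2.69 to 762), *Tnc* (41.4, 6.88 to 1688) and *Thbs2* (93.8, 16.3 to 3758) rest on 3, 1, 1, 1 and 1 UMIs in BA-like cells. The intervals of *Thbs4*, *Thbs3*, *Tgfbi* and *Tnc* include the ratio of *Sparc*, so no gene is named as the least depleted. Of the 6918 genes with at least 10 counts 25.5% were more than 2-fold lower and 21.8% more than 2-fold higher in BA-like cells, with a median log2 ratio of -0.04.

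The sorted Pdgfra-/Cd36+ bulk libraries of E16.5 held the 9 genes at mean levels from 1.71 to 432.3 CPM. Their brown adipocyte markers were high (*Fabp4* 4576 and 3935 CPM, *Adipoq* 1668 and 1228 CPM). Of the endothelial markers looked at, *Pecam1* was at 79.1 and 104.8 CPM but *Cdh5* only at 1.97 and 2.97 CPM. *Sparc* was at 439.5 and 425.04 CPM, *Thbs1* at 142.3 and 134.3 CPM, *Postn* at 101.3 and 53.8 CPM and *Fn1* at 52.6 and 34.1 CPM. *Thbs2* was at 31.2 and 12.54 CPM, *Tnc* at 15.3 and 18.1 CPM, *Tgfbi* at 5.95 and 4.49 CPM, *Thbs3* at 3.34 and 2.97 CPM and *Thbs4* at 1.45 and 1.97 CPM. The duplicates differed most for *Thbs2* and *Postn*. In bulk, fewer cells of a type and less RNA per cell cannot be told apart.

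The genes whose pattern was most like each member are a description over 29 class-by-pool sums (Pearson's r of log2(CPM + 1), centred per platform, 7527 genes), which share libraries and depth. *Thbs1* was nearest to the collagen genes *Col5a1* (r = 0.94), *Col6a3* (0.93) and *Col1a1* (0.93), *Thbs2* to *Col5a2* (0.94) and *Postn* to *Col3a1* (0.94). *Thbs4* was nearest to *Tnmd* (0.92), *Ccn3* (0.88) and *Mfap5* (0.85), and *Thbs3* to *Mmp16* (0.84). Across the LP-like clusters of a single stage, however, *Thbs4* did not follow *Tnmd*, as given above. *Tgfbi* was nearest to *Islr* (0.89), *Tnc* to *Tagln2* (0.91), *Fn1* to *Rhoc* (0.89) and *Sparc* to *Fkbp9* (0.95), which encodes a prolyl isomerase of the secretory pathway. Between members r was 0.93 for *Thbs1* and *Thbs2*, 0.91 for *Thbs1* and *Postn* and 0.05 for *Thbs3* and *Sparc*.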

How the data were processed

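YFP+ cells were measured with 10× and Smart-seq2, beside bulk libraries. UMI counts per gene and 10× cell were deposited from Cell Ranger on mm10, and Smart-seq2 expected counts were deposited from kallisto 0.44.0 with gene sums by tximport. Bulk read counts were deposited with a counting tool that is not given in the sources used here. On 1 of the 15 Smart-seq2 plates all deposited expected counts are whole numbers, and how they were made is not given. None is scaled, and expected counts were rounded for tests. Of the 18 bulk columns 16 could not be tied to a label, because their plus and minus signs are lost, and were not used, so the 9 planned bulk comparisons were not run and the likeness of patterns, planned over bulk libraries, was computed over class sums.

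Cells over 8% mitochondrial counts were left out. All cells met the limits of at least 4000 genes (Smart-seq2) and at most 15000 UMIs (10×). Platforms were integrated and clustered with Seurat 5.3.0 in R 4.3.3 (2000 variable genes, 30 components, resolution 0.8), with the 9 genes, the listed related genes and YFP kept out of the variable genes. A cluster was named for the marker list with the highest mean z-score, with at least 3 markers in at least 5% of its cells. The lowest score allowed, 0.3, was set after the scores were seen. Scrublet in scanpy 1.11.5 called 23 of 2921 10× cells (0.787%) doublets, and they were kept.

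Counts were summed per class and pool (1 platform at 1 time point, at least 20 cells) and tested with edgeR 4.0.16 (filterByExpr, TMM, quasi-likelihood test, Benjamini-Hochberg, adjusted p under 0.05), with the pool as a block where both classes share pools and the platform as a term otherwise. Nothing says that the 2 platforms of a stage used separate embryos, so p-values measure only the spread between pools, which may be technical. CPM in tests and in the brown adipocyte ratios are scaled to the 15152 genes of both tables, other CPM to all counts of the cells. Poisson, binomial (Clopper-Pearson) and conditional exact intervals cover counting error only. Other steps ran in Python 3.11.15 (scipy 1.17.1, pandas 2.3.3, numpy 2.4.6), and the procedure was tested on simulated data, where for all comparisons but that across stages the share of false calls lay above the threshold used, so adjusted p-values near it may be too small, and where few small changes were recovered for LP-like against EP-like cells or across stages. Alternatives were DESeq2 1.42.0, RLE factors, no filter on low counts, each pool or sum left out, 10× alone, resolution 1.2 and high-mitochondrial cells kept. Removing called doublets, leaving out the tendon-marker cluster or the plate of whole numbers, and tests of interaction were chosen after seeing the data. All 9 genes are named in every comparison, and of each related list up to 4 genes per direction by the largest change among those past the threshold. The genes, lists and tests were chosen with earlier results of these data known.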

Additional observations from a re-analysis of the deposited data

Results flagged for a closer look

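On Smart-seq2 plates of E12.5, 1 of 6 plates stood apart in EP-like cells for *Thbs4* (32.1 CPM, with the next plate at 4.96) and another for *Tnc* (257.3 CPM, with the next plate at 58.6). The plate of whole numbers is not among these 6, because its 8 EP-like cells were fewer than the 10 required. That plate was at 240.5 CPM of *Tnc*, near the flagged plate, and at 0 CPM of *Thbs4*. The flags are 2 of 36 groups of plates tested, and chance flags about 1 in 20.

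The difference between LP-like and EM-like cells was smaller at E16.5 than at E14.5 for *Tgfbi*, by -2.22 log2 units (edgeR interaction, adjusted p = 0.00157, with 2.32% of all genes called), in the pools where the tendon-marker cluster held most LP-like cells of E14.5. Its part in that difference was not tested. Between LM-like and EM-like cells the difference changed from E14.5 to E16.5 by 2.72 for *Postn* (edgeR adjusted p = 0.0303) and by 3.16 for *Tnc* (edgeR adjusted p = 1.16e-05), with 2.34% of all genes called. LM-like levels were near the floor. For *Postn* they went from 4.85 (3 UMIs) to 25.99 CPM (2 UMIs) on 10× and from 0.0290 (1 count) to 0.864 CPM on Smart-seq2, with EM-like cells at 45.6 and 80.6 and at 389.7 and 417.1 CPM. For *Tnc* the platforms went opposite ways: LM-like and EM-like cells were at 9.70 and 25.3 CPM at E14.5 and 13.0 (1 UMI) and 84.3 CPM at E16.5 on 10×, but at 1.25 and 268.6 and then 18.3 and 263.8 CPM on Smart-seq2, so no direction is given for it. None of the 9 genes passed for DF-like against LP-like cells, where 4.02% of all genes did.

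The Pdgfra-/Cd36+ bulk libraries stand outside the tested comparisons and have no control among the libraries used. Their mean levels were 138.3 CPM for *Thbs1*, 21.9 for *Thbs2*, 3.16 for *Thbs3*, 1.71 for *Thbs4*, 77.6 for *Postn*, 5.22 for *Tgfbi*, 16.7 for *Tnc*, 43.3 for *Fn1* and 432.3 for *Sparc*, all above the limit that a count of 0 allows.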

How the results depend on the processing

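Of the values of the 9 genes under the alternatives, 89.2% kept their direction and side of the threshold, 38 lost a call, 6 gained one and 16 changed sign, 4 of them called values. *Tgfbi* reversed to 1.38 (DF-like against LP-like) and -0.64 (LP-like against EM-like) without the tendon-marker cluster. *Thbs4* across stages in EM-like cells reversed to -0.36 and -5.69 (and was at most 4.19) without the Smart-seq2 sum of E12.5 or E16.5 and lost its call by DESeq2 (adjusted p = 0.415). Values that had not passed changed sign as well: *Tnc* to 0.032 without the tendon-marker cluster (DF-like against LP-like, -0.35 to 0.024 with a pool left out) and between -0.086 and 0.25 with a pool left out (LP-like against EM-like), and *Sparc* to -0.054 by DESeq2, -0.033 with RLE factors, -0.10 with 10× alone and between -0.14 and 0.15 with a pool left out (LM-like against EM-like). Across stages in EM-like cells *Fn1* went to 0.18 without the plate of whole numbers and, with a sum left out, *Fn1* spanned -0.82 to 0.66, *Thbs1* -1.41 to 0.58 and *Thbs2* -9.47 to 1.07. For LP-like against EP-like cells edgeR called 775 genes, 0 to 1568 with each sum left out, 85 with 10× alone, and DESeq2 1452. The higher calls were 84.5% of these in edgeR and 71.3% by DESeq2. For DF-like against LP-like cells 1709 genes were called, 969 to 1517 with a pool left out, 758 with 10× alone and 1012 without the tendon-marker cluster. For LP-like against EM-like cells 4622 were called, 3358 to 4274 with a pool left out and 3029 with 10× alone. For LM-like against EM-like cells 2113 were called, 1293 to 2523 with a pool left out and 701 with 10× alone. Across stages in EM-like cells 1291 were called, 82 to 1633 with a sum left out and 721 by DESeq2, and 10× alone could not be fitted. RLE factors moved the median of all genes from 0.11 to -0.01 (LP-like against EP-like), from 0.07 to -0.04 (LM-like against EM-like) and from 0.00 to -0.11 (EM-like across stages). Fewer sums or genes enter when sums are left out or 10× stands alone, and for the other changes the cause was not tested. Class comparisons within pools already have the pool as a block. By replicate number no paired analysis was possible because the groups with shared numbers are bulk libraries whose columns could not be tied to a label, so the bulk alternatives were not run.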
